A study of Mus musculus with 10 samples.

Results

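Fucosyltransferases are the enzymes that attach the sugar fucose to glycans and proteins, and 9 of their genes are described here in RNA-seq of mouse esophageal epithelium: Fut1, Fut2, Fut4, Fut8, Fut9, Fut10, Fut11, Pofut1 and Pofut2. They were taken by gene symbol and are 9 of the 56691 rows of the deposited table, and each symbol matched 1 row. The set was chosen by the FPKM of Fut2, whose difference between the genotypes in these libraries was already known, so values of the 9 genes across genotypes are a description, with no test. The study compared 2 genotypes with 5 libraries each: wild type, and p63CreERT2;Mst1loxp/loxp;Mst2-/- mice, called knockout here. In the knockout mice Mst1 is floxed, to be deleted by a tamoxifen-dependent Cre named for p63, a gene of basal squamous cells, whereas Mst2 is lacking in all cells of the animal. Both genotypes received tamoxifen in 3 doses of 100 mg/kg at intervals of 2 weeks, and the epithelium was taken after around 8 weeks. Age, sex and strain background, and whether the wild-type mice carried the Cre, are not given in the labels, which also do not say that each library came from its own mouse, so p-values measure the spread between these libraries. Effects of the alleles, of any difference in strain background and of loss of the kinases cannot be told apart in this design.

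Each fucosyltransferase moves fucose from the donor GDP-fucose to a particular place on a glycan or protein. Fut1 and Fut2 cap a terminal galactose and so make the H antigen, on which the A and B blood group antigens are built. Fut2 is the secretor enzyme of mucosal surfaces, and H-type fucose in the gut serves microbes as a sugar source and an attachment site. Fut4 and Fut9 place fucose on N-acetylglucosamine within a chain and make Lewis x, Fut8 adds the core fucose of N-glycans, and Pofut1 and Pofut2 add fucose directly to folded protein domains, those of Notch receptors in the case of Pofut1.

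Fut2 lies on chromosome 7 beside Sec1, a related gene, and near Fut1. Because these genes resemble each other, the stretches in which reads could be assigned to the wrong gene are shown first, from the coding sequences of the GENCODE M21 transcripts (GRCm38). The coding sequences of Fut2 (1041 bases) and Sec1 (1167 bases) are identical at 82.4% of 1011 aligned bases, and those of Fut2 and Fut1 (1131 bases) at 65.3% of 1036. The longest run shared by Fut2 and Sec1 is 180 bases, at coding bases 372 to 551 of Fut2 and 444 to 623 of Sec1, which is longer than the 150-base reads. It is set below against the aligned stretch of Fut1 (coding bases 417 to 596), in which capitals mark the 108 of 180 bases that are the same as in Fut2 and Sec1.
Fut2 and Sec1: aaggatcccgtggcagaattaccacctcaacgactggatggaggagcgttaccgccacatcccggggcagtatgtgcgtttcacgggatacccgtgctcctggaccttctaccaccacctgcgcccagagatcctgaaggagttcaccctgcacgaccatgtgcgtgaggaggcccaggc
Fut1: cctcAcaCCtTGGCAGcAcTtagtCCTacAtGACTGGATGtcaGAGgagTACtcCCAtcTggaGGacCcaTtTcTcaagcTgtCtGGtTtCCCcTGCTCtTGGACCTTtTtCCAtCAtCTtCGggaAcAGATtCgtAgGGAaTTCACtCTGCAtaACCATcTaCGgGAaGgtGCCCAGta
The longest run that Fut2 shares with Fut1 is 24 bases, far shorter than a read, and lies at coding bases 591 to 614 of Fut2, 642 to 665 of Fut1 and 663 to 686 of Sec1.
Fut2, Fut1 and Sec1: tacctttgtgggtgtccatgtgcg
Over whole transcripts, 218 of the 5459 windows of 31 bases in Fut2 (3.99%) occur in another gene, 212 of them in Sec1, against 0.36% of those in Fut1. Fut8 shares 6% of its windows with other genes, and each of the remaining 6 members shares at most 0.97%. Sec1 itself was listed at 0 FPKM in all 10 libraries.

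FPKM, the fragments of a gene scaled by the length of its model and by the fragments of the library, is the level the authors deposited, so levels of different genes can be set side by side per length. Read from the smallest steps of short single-exon genes, the libraries held an estimated 13068000 to 16444500 fragments, and 10878 to 11606 genes reached 1 FPKM. The markers of squamous epithelium (Krt4, Krt13, Krt5, Krt14, Krt15, Trp63, Sox2, Dsg3, Krt6a) summed to 66100 to 71400 FPKM in wild-type libraries and 64100 to 70100 in knockout ones, so the defining markers of the labelled tissue were present. All 9 of those markers were tested, and 1 of them, Trp63, was lower in knockout. Transcript of Stk3, the gene of Mst2, was 2.08 to 3.48 FPKM in wild-type libraries and 0.05 to 0.25 in knockout ones. Stk4, the gene of Mst1, was 16.96 to 22.73 FPKM in wild-type libraries and 12.22 to 17.38 in knockout ones, and a value over the whole gene does not show the deletion of floxed exons.

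Fut2 was the most abundant fucosyltransferase transcript of the wild-type epithelium and was almost absent from the knockout libraries. It (ENSMUSG00000055978, chromosome 7) stood at 15.10, 16.17, 16.93, 13.99 and 15.06 FPKM in wild-type libraries 1 to 5. In knockout libraries 1 to 5 it stood at 0.08, 0.09, 0.05, 0.27 and 0.11 FPKM. All 5 knockout libraries lay far below all 5 wild-type libraries. The means were 15.4 ± 1.13 FPKM and 0.12 ± 0.0866 FPKM (SD, n = 5 and 5), a ratio of 129. The difference of mean log2(FPKM + 1) was -3.88 (SE 0.07), which understates the ratio because 1 is added to a knockout level near 0. In estimated fragments these levels correspond to 1101 to 1377 per wild-type library and 4 to 20 per knockout library, where 1 fragment is worth 0.0112 to 0.0141 FPKM. By mean level Fut2 exceeded 76.1% of the tested genes in wild type and 0.0615% of them in knockout. Tested genes reach 1 FPKM in at least 5 libraries, and Fut2 did so only through wild type. Its place at the bottom of the tested genes in knockout therefore follows from that filter. Among all 56691 rows its mean ranked 2720 in wild type and 16754 in knockout. Its spread in wild type was narrow, with a coefficient of variation of 7.32%, against 15.2% for Fut1. In bulk RNA of an epithelium, fewer cells that express a gene and less RNA per cell cannot be told apart.

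Fut1, which makes the same linkage as Fut2 and lies near it on the chromosome, did not share that pattern. Fut1 (ENSMUSG00000008461) was at 5.14, 3.92, 4.61, 4.24 and 5.72 FPKM in wild-type libraries and 5.16, 5.50, 4.19, 4.91 and 4.39 in knockout ones. The groups overlapped over most of their range, with means of 4.73 ± 0.717 and 4.83 ± 0.54 FPKM and a difference of mean log2(FPKM + 1) of 0.03 (SE 0.10), which was -0.03 with libraries rescaled by median ratios and -0.01 with quantile normalization. Summed over Fut1 and Fut2, transcript for H antigen synthesis was 20.2 ± 1.23 FPKM in wild-type libraries and 4.95 ± 0.56 in knockout ones, nearly all of the latter from Fut1. No knockout library exceeded the highest wild-type library in Fut1.

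**Figure D1:**
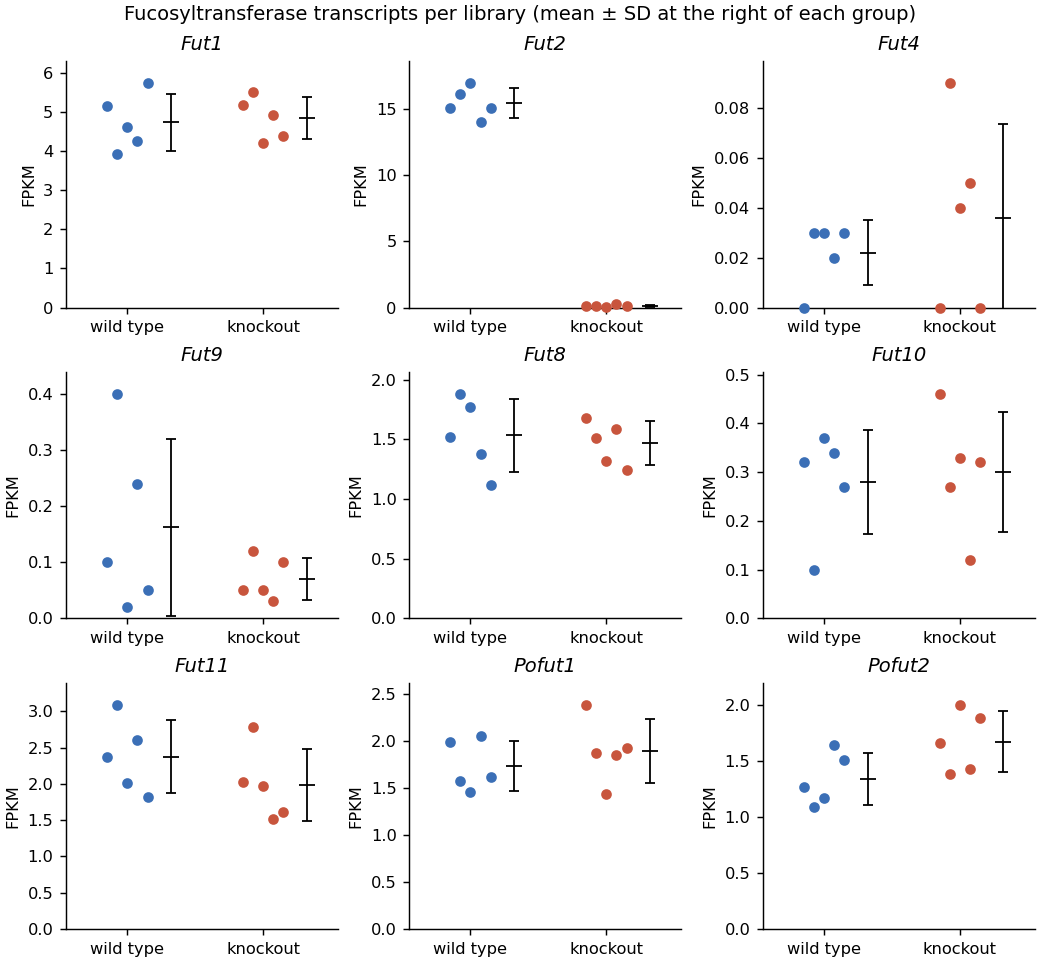
FPKM of each of the 9 fucosyltransferases in the 10 libraries, 1 panel per gene with its own axis from 0; points are libraries, and the bar at the right of each group is the mean ± SD of 5 libraries. Fut2 is the panel in which the groups separate, at 13.99 to 16.93 FPKM in wild-type libraries and 0.05 to 0.27 in knockout ones.

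The Lewis x enzymes were low in both genotypes, and Fut4 was at or near the floor of detection. Fut4 (ENSMUSG00000049307, chromosome 9) read 0, 0.03, 0.03, 0.02 and 0.03 FPKM in wild-type libraries and 0, 0.09, 0.04, 0.05 and 0 in knockout ones, an estimated 0 to 5 fragments per library. Fut9 (ENSMUSG00000055373, chromosome 4) read 0.10, 0.40, 0.02, 0.24 and 0.05 FPKM in wild-type libraries and 0.05, 0.12, 0.05, 0.03 and 0.10 in knockout ones. Its 2 highest values were those of wild-type libraries 2 and 4, and the other wild-type libraries lay within the knockout range or just below it. In estimated fragments Fut9 held 4 to 87 per wild-type library and 6 to 23 per knockout library. Fut7, which acts on sialylated chains in leukocytes and was not among the members, was at most 0.03 FPKM. The groups overlapped for all of them.

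Fut8, which adds the core fucose that most complex N-glycans can carry, was at 1.52, 1.88, 1.77, 1.38 and 1.12 FPKM in wild type (ENSMUSG00000021065, chromosome 12). In knockout it was at 1.68, 1.51, 1.32, 1.59 and 1.24 FPKM. The knockout libraries all lay inside the wild-type range, and the difference of mean log2(FPKM + 1) was -0.03 (SE 0.09). The model of Fut8 overlaps exons of an opposite-strand gene, 9530018F02Rik, and the strand setting of the authors' counting is not given in the sources used here.

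Among the enzymes that act on proteins, Pofut1 (ENSMUSG00000046020, chromosome 2), which fucosylates the EGF-like repeats of Notch receptors and ligands, was at 1.99, 1.57, 1.46, 2.05 and 1.61 FPKM in wild type. In knockout it was at 2.38, 1.87, 1.43, 1.85 and 1.92 FPKM, so the groups overlapped and 1 knockout library lay above all others. Pofut2 (ENSMUSG00000020260, chromosome 10), which fucosylates thrombospondin repeats, was at 1.27, 1.09, 1.17, 1.64 and 1.51 FPKM in wild-type libraries and 1.66, 1.38, 2.00, 1.43 and 1.88 in knockout ones. The difference of mean log2(FPKM + 1) for Pofut2 was 0.19 (SE 0.09), with overlapping groups. Its exons overlap those of Gm10941 on the other strand.

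Fut10 and Fut11 were first placed with the Lewis-type enzymes by sequence and have since been described as protein O-fucosyltransferases. Fut11 (ENSMUSG00000039357, chromosome 14) was the third most abundant member in wild type, at 2.37, 3.09, 2.01, 2.60 and 1.82 FPKM, and stood at 2.03, 2.78, 1.97, 1.52 and 1.61 FPKM in knockout. The difference of mean log2(FPKM + 1) was -0.18 (SE 0.14), and the groups overlapped. Fut10 (ENSMUSG00000046152, chromosome 8) was at 0.32, 0.10, 0.37, 0.34 and 0.27 FPKM in wild-type libraries and 0.46, 0.27, 0.33, 0.12 and 0.32 in knockout ones. In each genotype a single library read near 0.1 FPKM, and the other 4 lay between 0.27 and 0.46 FPKM.

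Across the set, the genotypes did not overlap for 1 of the 9 members, Fut2, and overlapped for the other 8. Among all 11386 tested genes the groups did not overlap for 10.5%. Since the set was chosen with Fut2 known, that count says nothing further about the family. Of the 9 members, 6 passed the filter of at least 1 FPKM in at least 5 libraries, and Fut2 passed it through wild type, the group in which it is high. Fut4, Fut9 and Fut10 lay below it. In wild type the order of mean levels was Fut2, Fut1, Fut11, Pofut1, Fut8, Pofut2, Fut10, Fut9 and Fut4. Fut2 and Fut1 were each apart from the next gene, Fut11 to Pofut2 overlapped each with its neighbour, and Pofut2 was apart from Fut10. In knockout Fut1 led, Fut11, Pofut1, Pofut2 and Fut8 followed with overlapping ranges, and Fut2 stood between Fut10 and Fut9, overlapping both.

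The summed level of the 9 transcripts was 27.6 ± 0.776 FPKM in wild type (range 26.5 to 28.4) and 12.4 ± 1.08 FPKM in knockout (range 11.4 to 13.6). Without Fut2 the sums were 12.2 ± 0.498 and 12.2 ± 1.11 FPKM. Fut2 supplied 55.9 ± 2.67% of the sum in wild type and 0.987 ± 0.752% in knockout. The share of Fut1 was 17.1 ± 2.71% in wild type and 39.0 ± 2.0% in knockout, while its own level stayed within overlapping ranges.

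**Figure D2:**
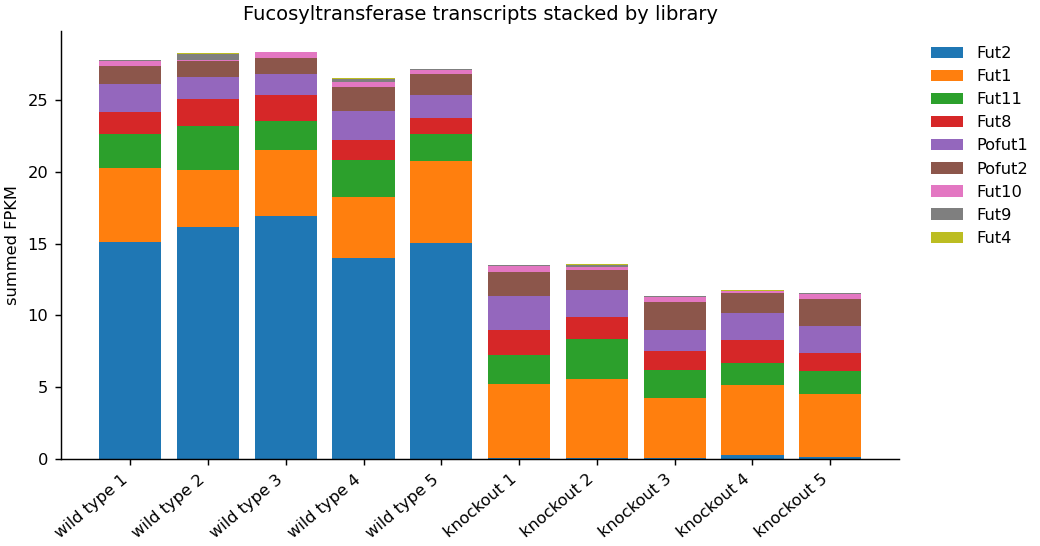
FPKM of the 9 fucosyltransferases stacked for each library, in the colours of the key. The wild-type bars reach 26.5 to 28.4 FPKM and the knockout bars 11.4 to 13.6 FPKM, and the Fut2 part at the base of the wild-type bars is what the knockout bars lack.

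Several other measures differed between the libraries and were set beside these values. Trp63, the p63 gene after which the Cre line is named, was at 31.24 to 46.53 FPKM in wild-type libraries and 18.15 to 27.88 in knockout ones (log2 fold change -0.76, SE 0.13; limma adjusted p = 0.00293). Fibroblast markers summed to 4.44 to 13.6 FPKM in wild-type libraries and 0.07 to 1.13 in knockout ones. Nearly all of this was Dcn, which encodes the matrix proteoglycan decorin, and the other 5 of the 6 fibroblast markers were below 0.1 FPKM in every library, Col1a2 at 0. Mucous gland and columnar markers summed to 0.33 to 4.01 FPKM in wild-type libraries and 2.09 to 6.19 in knockout ones. Most of the highest sums was Spdef, a secretory cell factor, at 0.13 to 3.67 and 1.29 to 5.41 FPKM, which missed the threshold (limma adjusted p = 0.161). Of those 11 markers 7 were below 0.1 FPKM in every library, with Muc5ac, Tff1, Tff2 and Bpifb1 at 0. Leukocyte markers summed to 10.4 to 37.5 and 13.6 to 29.0 FPKM, mostly as Cd74 and Cd68, and their ranges overlapped. Cd74 averaged 14.0 ± 10.3 FPKM in wild-type libraries and 9.76 ± 3.8 in knockout ones (limma adjusted p = 0.733). Cd68 averaged 6.63 ± 2.82 and 11.4 ± 3.72 FPKM (limma adjusted p = 0.0787), so it was the larger of the 2 in knockout, and neither passed the threshold. Endothelial, muscle and Schwann cell markers summed to at most 0.64 FPKM in any library. The part of Trp63, Dcn and the mucous markers in the Fut2 difference was not tested.

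Libraries also differed in Dbp, a clock output gene that is a near neighbour of Fut2, which was above 5 FPKM in 3 wild-type and 2 knockout libraries. Within those libraries Fut2 averaged 15.1 FPKM in wild-type libraries and 0.085 in knockout ones, and within the remaining libraries 16.0 and 0.143 FPKM. The difference in mean log2(FPKM + 1) was -3.89 and -3.9, a scale on which knockout levels near 0 differ little. For Fut1 the corresponding differences were 0.23 and -0.16, each from 2 or 3 libraries per genotype, too few to read the opposite signs. For Fut9 they were -0.19 and 0.03, and its 2 highest libraries both belonged to those with high Dbp.

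No tested neighbour of Fut2 on chromosome 7 was past the threshold as lower in knockout, and 1 was past it as higher. Without wild-type library 2, 1 neighbour was called lower. Of the 40 genes nearest to Fut2 in the reference order on chromosome 7, 20 on each side, 39 were in the table and 13, Fut1 among them, passed the filter. The gene past the threshold was Bax, the apoptosis effector, which rose from 17.7 ± 1.63 FPKM (15.97 to 19.87) to 26.0 ± 4.22 FPKM (21.74 to 32.01). Its log2 fold change was 0.52 (SE 0.12), at a limma adjusted p of 0.014. Among all tested genes 7.9% were higher in knockout and 4.96% were lower, 12.9% in either direction. The median log2 fold change was 0.23 for the 13 neighbours and 0.06 for all tested genes. The nearest tested gene on the side opposite to Fut1 was Dbp, at 22.62, 12.04, 1.25, 16.35 and 1.73 FPKM in wild-type libraries and 14.5, 8.45, 0.84, 0.56 and 0.38 in knockout ones. Dbp varied widely within both genotypes and did not pass the test (log2 fold change -1.16, SE 0.93; limma adjusted p = 0.44). Among the 26 neighbours below the filter, Fam83e and A030001D20Rik were lower in every knockout library than in every wild-type library, at levels of at most 1.00 FPKM. Of these 26, 21 had a value above 0, and among all genes below the filter with a value above 0 the knockout libraries were lower without overlap in 1.65%.

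**Figure D3:**
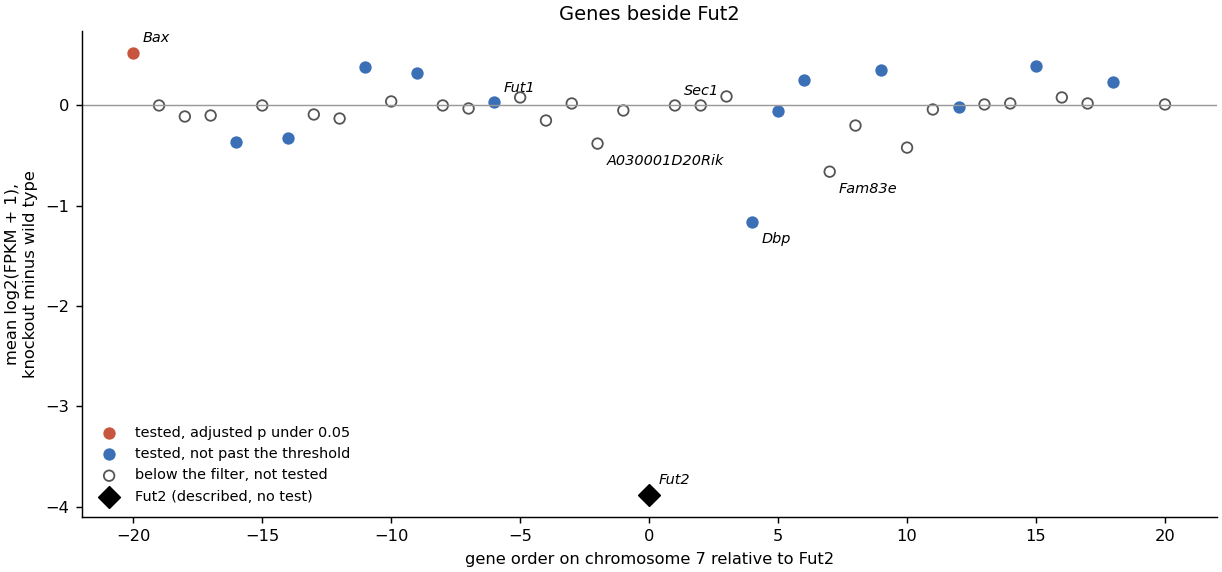
Difference in mean log2(FPKM + 1), knockout minus wild type, of the genes around Fut2 on chromosome 7, by their order from Fut2 (position 0); red is a tested gene with adjusted p under 0.05, blue a tested gene not past it, open circles are genes below the filter. Fut2 lies at -3.88 and Fut1 at 0.03.

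Genes of the supply and the substrates of the fucosyltransferases were read from the same fit across all 11386 tested genes (limma on log2(FPKM + 1), Benjamini-Hochberg adjusted over all of them). That fit placed 900 genes higher and 565 lower in knockout, 7.9% and 4.96% of all tested genes. The median log2 fold change of all tested genes was 0.06. Counts in the short lists below are to be set beside these values, and no set test was run. Of the calls 61.4% were higher, and the counts dropped to 436 and 357 without wild-type library 5. With libraries rescaled by median ratios the share of calls that were higher was 46.6%, and with quantile normalization it was 47.9%.

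All 5 tested genes of the 6 that make and carry GDP-fucose had positive log2 fold changes, and 1 of them rose while 4 did not pass. Their median was 0.21, against 0.06 for all tested genes, of which 7.9% rose. The smallest was 0.08 (SE 0.12), and the share of all tested genes with a positive value was not counted. The gene that rose was Slc35c1, the Golgi transporter that brings GDP-fucose to the enzymes, at 8.36, 6.58, 9.45, 10.88 and 8.04 FPKM in wild-type libraries and 11.85, 10.40, 13.76, 11.50 and 17.70 in knockout ones. The groups overlapped between 10.40 and 10.88 FPKM (log2 fold change 0.53, SE 0.15; limma adjusted p = 0.0402), and the call held in 10 of 19 alternative settings, with adjusted p from 0.0252 to 0.0986. It was lost without wild-type library 1, 2 or 5, without knockout library 1, 3 or 5, with no filter and under either rescaling. Gfus, which makes GDP-fucose by the main route, was at 7.38 ± 1.6 and 8.21 ± 1.01 FPKM and did not pass.

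Of the 2 fucosidases, which remove fucose in the lysosome or outside the cell, 1 fell and 1 did not pass. The share of all tested genes that fell was 4.96%, and a list of 2 is too short to set against it. Fuca1, the lysosomal enzyme, was at 26.33, 25.69, 21.71, 18.10 and 24.52 FPKM in wild-type libraries and 12.50, 10.14, 20.11, 16.18 and 18.02 in knockout ones. The lowest wild-type library lay inside the knockout range (log2 fold change -0.59, SE 0.17; limma adjusted p = 0.0433). The call held in 9 of 19 settings, with adjusted p from 0.0292 to 0.106. The losses included the fits without wild-type library 1, 2, 3 or 5, without knockout library 1, 2, 4 or 5, and with no filter. Fuca2 was at 9.65 ± 1.62 and 11.0 ± 1.23 FPKM.

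None of the genes that build the chains and blood group structures around the H antigen passed the test. Of 30 genes 11 were tested, with a median log2 fold change of -0.02. Abo, whose enzyme extends the H antigen to the A and B antigens, was at 11.7 ± 2.76 FPKM in wild-type libraries and 10.9 ± 2.56 in knockout ones. Ggta1, which makes the alpha-galactose epitope on the same type of terminal galactose that Fut1 and Fut2 use, was at 17.0 ± 3.86 and 16.5 ± 5.81 FPKM. C1galt1c1, the chaperone of the core O-glycan galactosyltransferase, was at 14.41 to 17.35 FPKM in wild-type libraries and 17.36 to 20.28 in knockout ones. Its groups did not overlap, yet the log2 fold change of 0.22 (SE 0.09) did not pass (limma adjusted p = 0.128).

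Sialyltransferases compete with fucosyltransferases for terminal galactose or extend the core of O-glycans. Of 18 rows 3 were tested and 2 fell, where 4.96% of all tested genes fell. Both rows that fell carry the same symbol, St6galnac2, an enzyme that adds sialic acid to the first sugar of O-glycans. The count therefore does not speak for sialyltransferases as a class. The more abundant row (ENSMUSG00000057286, chromosome 11) was at 10.16, 7.48, 5.36, 5.29 and 5.68 FPKM in wild-type libraries and 4.07, 4.16, 1.87, 3.04 and 1.41 in knockout ones, so the groups did not overlap (log2 fold change -1.02, SE 0.24; limma adjusted p = 0.0162). The second row (ENSMUSG00000110170) had the values 4.57, 3.11, 1.15, 2.42 and 2.85 FPKM in wild-type libraries and 0.82, 1.13, 0.34, 0.90 and 0.16 in knockout ones (log2 fold change -1.16, SE 0.24; limma adjusted p = 0.00927). How reads were shared between the rows is not stated in the labels, so the level of either row is uncertain, and the first row missed the threshold with no filter (limma adjusted p = 0.0515, the highest of a range from 0.00293). St3gal2, the third tested row, was at 3.17 ± 0.392 and 3.21 ± 0.434 FPKM.

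Among the genes that trim and branch N-glycans, the substrates of Fut8, 9 of 12 were tested, 2 rose and none fell. Their median log2 fold change was 0.10, against 0.06 for all tested genes, of which 7.9% rose. Mgat4a, which starts an additional branch on the N-glycan, was at 1.95, 2.90, 1.94, 2.15 and 1.49 FPKM in wild-type libraries and 5.80, 5.06, 4.72, 5.30 and 4.46 in knockout ones. Every knockout library lay above every wild-type library (log2 fold change 0.99, SE 0.12; limma adjusted p = 0.000351). Mgat2, which opens the path to complex N-glycans, rose from 18.5 ± 2.67 to 26.2 ± 2.64 FPKM without overlap (log2 fold change 0.49, SE 0.12; limma adjusted p = 0.0192). The Mgat2 call held in 15 of 19 settings, and the losses included the fits without wild-type library 5, without knockout library 5 and with no filter. Man1a2, an early trimming mannosidase, was at 16.1 ± 1.35 and 17.1 ± 1.45 FPKM.

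No gene that extends O-fucose or modifies Notch by other O-glycans passed the test, and neither did a Notch receptor or ligand. Without wild-type library 2, 1 of the enzymes was called lower, and without knockout library 3, 1 was called higher. Of 11 such enzymes 8 were tested, at a median log2 fold change of 0.08, while of 9 receptors and ligands 6 were tested, with a median of -0.21. Rfng, a Fringe enzyme that lengthens the fucose set by Pofut1, was at 7.95 ± 2.06 and 7.84 ± 0.979 FPKM, and Poglut1, which glucosylates the same repeats, at 6.62 ± 0.969 and 7.06 ± 1.34 FPKM. The ligand genes Jag1, at 19.8 ± 3.99 and 16.0 ± 2.2 FPKM, and Jag2, at 19.0 ± 6.04 and 14.8 ± 3.75 FPKM, were the most abundant of the carriers in wild type. In knockout Notch3, at 16.8 ± 4.2 FPKM in wild-type libraries and 16.4 ± 1.68 in knockout ones, stood above both.

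Mucin-type O-glycans are started by the Galnt enzymes, and their chains are a main carrier of H antigen on epithelia. Of 14 genes 9 were tested, 3 rose and none fell, with a median log2 fold change of 0.29. Among all tested genes 7.9% rose and the median was 0.06. Galnt3 was at 4.65, 6.58, 4.84, 5.29 and 4.35 FPKM in wild-type libraries and 11.13, 11.42, 10.88, 8.83 and 13.31 in knockout ones, with no overlap (log2 fold change 0.98, SE 0.12; limma adjusted p = 0.000377). Galnt7, which adds to peptides already carrying a sugar, was at 5.34, 6.62, 7.98, 9.41 and 6.77 FPKM in wild-type libraries and 17.28, 12.33, 14.73, 12.09 and 14.02 in knockout ones (log2 fold change 0.88, SE 0.14; limma adjusted p = 0.00197). Both stayed past the threshold in 19 of 19 settings. Galnt12 rose from 3.04 ± 0.919 to 4.81 ± 0.758 FPKM (log2 fold change 0.54, SE 0.16; limma adjusted p = 0.0414), a call that held in 8 of 18 settings and was lost without wild-type library 1, 3, 4 or 5 or knockout library 1, 2, 3 or 5, with no filter and under median ratios. Galnt18 was at 11.0 ± 4.09 and 16.9 ± 4.6 FPKM and did not pass, though it did in some alternatives, among them the fit without wild-type library 1. Galnt1 was at 12.7 ± 1.31 and 13.2 ± 1.7 FPKM.

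**Figure D4:**
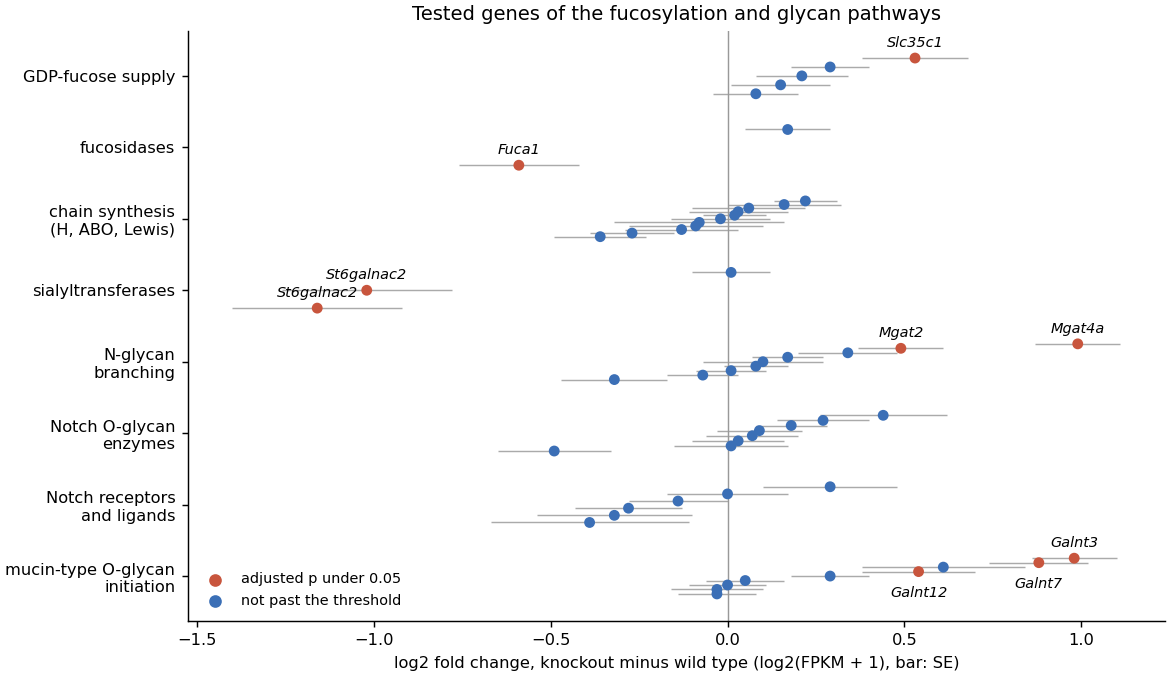
Log2 fold change (knockout minus wild type, on log2(FPKM + 1)) of every tested pathway gene, 1 row of points per list, with bars of 1 SE; red marks adjusted p under 0.05. The GDP-fucose points all lie to the right of 0, with Slc35c1 at 0.53, and the called points furthest from 0 are the St6galnac2 rows at -1.02 and -1.16 and Mgat4a and Galnt3 at 0.99 and 0.98.

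**Figure D5:**
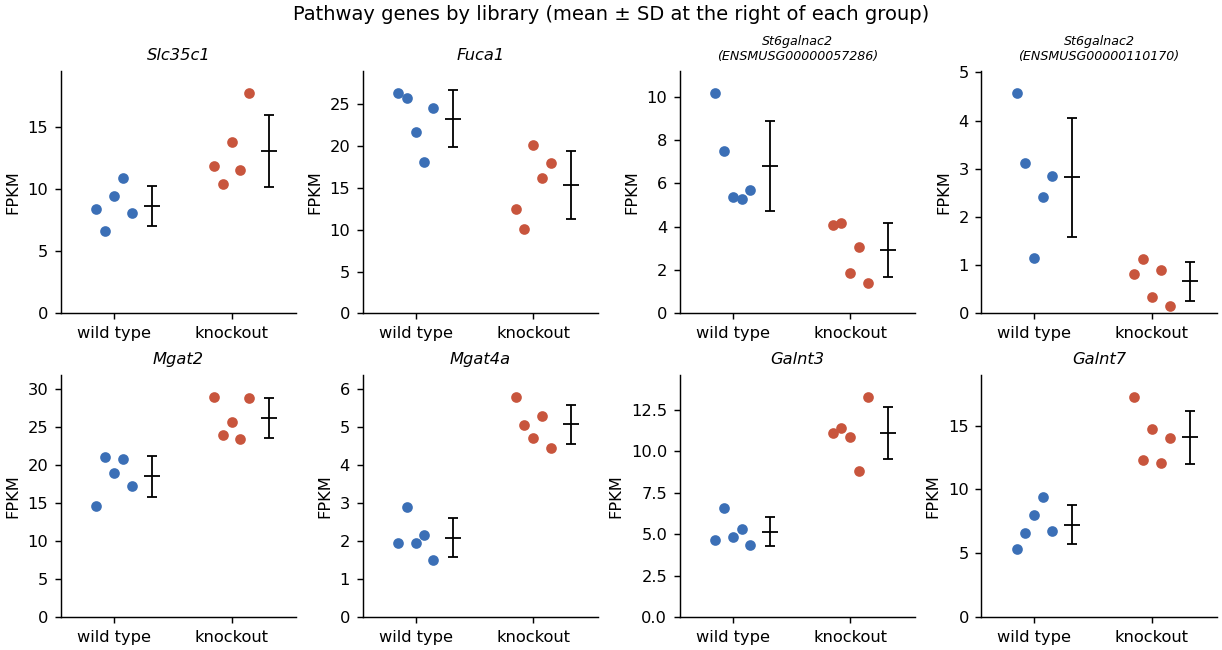
FPKM in each library of 7 pathway genes past the threshold (St6galnac2 has 2 rows), with axes from 0 and the mean ± SD of 5 libraries at the right of each group. Slc35c1 and Fuca1 are the panels in which the groups overlap, and Galnt12 is not shown.

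The genes whose levels most resembled that of Fut2 over the 10 libraries, among 6290 named genes with a mean of at least 5 FPKM in a genotype, were ranked by Pearson correlation of log2(FPKM + 1). The genotypes form separate clusters for Fut2, so the coefficient describes a shared difference between genotypes and carries no p. Among the most alike were Rpl29 (r = 0.998), H60c (0.992), Atp6v0c (0.99) and Rpl34 (0.989). Atp6v0c, a subunit of the vacuolar proton pump, was at 33.7 ± 3.41 FPKM in wild-type libraries and 4.53 ± 0.746 in knockout ones. H60c, a ligand of the NKG2D receptor, was at 25.8 ± 6.92 and 0.054 ± 0.0695 FPKM, near 0 in knockout like Fut2. The most opposite were Rps3a3 (-0.991), Spink12 (-0.989) and Rps3a2 (-0.987). Ribosomal protein genes have near-identical copies in the genome, so the values of Rpl29, Rpl34, Rps3a2 and Rps3a3 are uncertain as measures of single genes. For Atp6v0c, H60c and Spink12, sequence shared with other genes was not examined.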

How the data were processed

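RNA of esophageal epithelium, freed of muscle and mesenchyme with Dispase, was sequenced as pairs of 150-base reads, per the labels' protocols. The authors deposited FPKM values for all 10 libraries; the submitters' processing notes name the build mm9 with HISAT2 2.0.1, cutadapt and HTSeq 0.6.1. The sources used here give no settings, annotation release or use of strand. Coordinates are not printed, because the reference at hand was GRCm38 (GENCODE M21); only chromosome names, gene order and transcript sequences were used.

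Fragments per library were estimated from single-exon genes of at most 1200 bp, whose FPKM values came out as whole fragments for 97.9 to 98.3% of values, within 0.01 fragment beyond rounding. For multi-exon genes of at most 1200 bp, not used to set the totals, the share was 87.0 to 89.1%. The fragments given for the members rest on GENCODE M21 lengths, which may differ from those the authors used. Genes reaching 1 FPKM in 5 or more libraries were tested with limma 3.58.1 in R 4.3.3 on log2(FPKM + 1), with a robust mean-variance trend and a threshold of 0.05 after Benjamini-Hochberg adjustment; a fold change on this scale understates that of low genes. The procedure was tested on simulated data. No count model was fitted. The named genes are the members, Fut7, Sec1, Stk3 and Stk4; the called and the 2 most abundant genes of each list; called and nearest neighbours of Fut2 with Dbp; and the 5 genes most like and 3 most unlike Fut2, of which 1 is not reported here. Trp63, Dcn and the other cell type genes appear as markers, while Fam83e, A030001D20Rik, Abo, Notch3, Gmds, Man1a, A4galt and St6gal1 were named after their values were seen. The members and lists were chosen with earlier results of these data known. Alternatives covered the pseudocount, filter, scaling, quality weights, estimation, threshold, replicate block and each library left out.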

Additional observations from a re-analysis of the deposited data

Results flagged for a closer look

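Fut2 in knockout library 4 read 0.27 FPKM, apart from the other 4 knockout libraries at 0.05 to 0.11 FPKM (mean 0.0825 FPKM). Its gap to the next library was 0.727 of the whole range of the group. This was the 1 group that stood out among 42 examined over 21 genes. Chance alone flags about 1 in 20 such groups, a rate that 1 of 42 does not exceed. In estimated fragments the library held 20 for Fut2, against 4 to 9 in the others, and it remained far below the lowest wild-type library at 13.99 FPKM. Dcn was also highest among the knockout libraries in this library, at 1.12 FPKM against 0.06 to 0.22 FPKM, and its part in the Fut2 value was not tested.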

How the results depend on the processing

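The Fut2 difference stayed negative throughout, at -6.21 with a pseudocount of 0.1, -2.0 with a pseudocount of 5, and -3.92 to -3.85 with each library left out, the size following the constant added to a level near 0. Genes called higher in knockout numbered 900, against 511 with no filter, 1390 with sample quality weights, 293 at an adjusted p of 0.01 and 436 to 1091 with each library left out (436, 495, 529, 538 and 572 without wild-type 5, wild-type 1, knockout 5, knockout 1 and knockout 3). Those called lower numbered 565, against 329 with a filter at 5 FPKM, 245 at 0.01 and 357 to 679 with each library left out (357, 363 and 369 without wild-type 5, wild-type 1 and knockout 5). The share of calls that were higher was 61.4%, 46.6% under median-ratio scaling and 47.9% under quantile normalization, so most calls were higher as reported and lower under either rescaling. With no filter, GDP-fucose genes gave 0 higher, fucosidases 0 lower, sialyltransferases 1 higher and 1 lower, and neighbours 2 lower. Quantile normalization and median ratios gave 0 GDP-fucose genes higher and 1 Notch O-glycan enzyme lower, and median ratios also 1 chain synthesis gene lower. Quality weights gave 1 Notch O-glycan enzyme lower and 1 neighbour lower. A filter at 5 FPKM gave 1 sialyltransferase lower and 1 N-glycan gene higher. At 0.01, 0 GDP-fucose genes and 0 neighbours were higher, 0 fucosidases and 1 sialyltransferase lower and 1 N-glycan gene higher. With each library left out, GDP-fucose genes gave 0 to 1 higher, fucosidases 0 to 1 lower, N-glycan genes 1 to 2 higher, Notch O-glycan enzymes 0 to 1 in either direction and neighbours 0 to 1 lower. The cause of these changes was not tested. Deviations of same-numbered libraries correlated at 0.061, 0.423, 0.194, -0.241 and 0.107. These values were not set against differently numbered libraries, so they do not decide whether replicate numbers pair the libraries. With the replicate block, 773 genes were higher and 551 lower, with 0 fucosidases lower, 1 N-glycan gene, 1 Notch O-glycan enzyme and 4 mucin-type O-glycan genes higher: Fuca1 (adjusted p = 0.0708) and Mgat2 (0.0554) were lost and Galnt18 (0.0142) gained. No called gene named changed sign. Ggta1, not called, went from -0.08 to 0.09 without knockout 3. With a pseudocount of 0.1, Fut9 was at -0.45 and Fut11 at -0.26, against -0.11 and -0.18. Depth limits Fut4 and Fut10, and knockout Fut2 rests on a few fragments per library.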

Other observations

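Of the 26 neighbours of Fut2 below the filter, 21 had a value above 0. Of these 21, 2 had groups that did not overlap, and both were lower in knockout. The same held for 1.65% of all genes below the filter with a value above 0. The 2 neighbours were named after their values were seen. Fam83e was at 0.76, 1.00, 0.38, 0.54 and 0.87 FPKM in wild-type libraries and 0.08, 0.09, 0.06, 0.11 and 0.02 in knockout ones. A030001D20Rik, the second annotated gene from Fut2 on the side of Fut1, was at 0.35, 0.46, 0.34, 0.51 and 0.21 FPKM in wild-type libraries and 0.14, 0.09, 0.02, 0 and 0.02 in knockout ones. With no filter, over 27599 genes, their limma adjusted p was 0.00719 and 0.0219.

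Some low genes of the pathways were also below the filter. Gmds, the first enzyme from GDP-mannose to GDP-fucose, averaged 0.418 ± 0.0722 FPKM in wild-type libraries and 0.826 ± 0.476 in knockout ones. Man1a, a trimming mannosidase, averaged 0.36 ± 0.192 and 1.06 ± 0.308 FPKM, and A4galt, which makes the P blood group glycolipid, 0.576 ± 0.385 and 0.088 ± 0.105 FPKM. In the fit with no filter Man1a, whose groups did not overlap, was past the threshold (limma adjusted p = 0.0422). Gmds (0.268) and A4galt (0.109) were not. St6gal1, a sialyltransferase at 0.06 FPKM or less, was also past it (limma adjusted p = 0.0457), with overlapping groups. That fit called 511 genes higher and 466 lower in knockout, of 27599.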
